A study of Equus caballus with 4 samples.

Results

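The genes described here encode the insulin-like growth factors (IGFs) IGF1 and IGF2, their receptors IGF1R and IGF2R, and the IGF binding proteins IGFBP2, IGFBP3, IGFBP4, IGFBP5, IGFBP6 and IGFBP7. Of the 43603 gene probes on the array, 6 carried exactly one of these 10 symbols. They were 1 probe for IGF1, 2 for IGF2, and 1 each for IGF1R, IGF2R and IGFBP2. The other 5 genes were found only under other names, after the files had been seen. IGFBP3, IGFBP4, IGFBP5 and IGFBP6 were written with a hyphen (1, 1, 6 and 1 probes), and IGFBP7 was listed as AGM, its older name angiomodulin (5 probes, matched by RefSeq accession). Another IGF2 probe was recognised from its description, which places it in the 3′ untranslated region. These 15 probes were kept apart from the first 6 in all counts. All 21 probes passed the filter on low signal and were among the 24230 tested.

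Cells were equine satellite cells, the stem cells of skeletal muscle, taken from m. semitendinosus and held in differentiation medium with horse serum until day 3. In the treated group, medium contained gamma-oryzanol (GO), the ferulic acid esters of rice bran sterols, at 0.125 µM for 24 h, with 3 mM H2O2 in the final 1 h. Control medium had the DMSO vehicle without GO. Whether it also had H2O2 is not said in the labels, but the methods and results of the study treat the control as given H2O2. According to the methods, cells came from young stallions and 1 primary cell line was selected, so the 4 replicates are cultures and not animals. On each of 4 two-colour arrays of 1 slide, treated RNA was labelled with Cy5 and control RNA with Cy3. No array had the dyes exchanged, and dye and treatment cannot be told apart in any value below. The control channel has the same replicate mark on all 4 arrays in the labels, whereas the series lists 4 control replicates. Between any 2 arrays the control channels differed by a median of 0.0694 to 0.118 on the log2 scale, and the treated channels by 0.0775 to 0.119. The p-values therefore measure only the spread between these 4 arrays.

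IGF1 and IGF2 are secreted peptides that signal through the receptor tyrosine kinase IGF1R to PI3K and AKT and to the MAP kinases. IGF2R, the cation-independent mannose-6-phosphate receptor, takes IGF2 up for lysosomal degradation, and the binding proteins carry IGFs, limit their access to the receptor and in part act on their own. In muscle precursor cells, IGF2 is made by the differentiating cells themselves and promotes their differentiation, and IGFBP5 is the binding protein best known from the same process.

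The comparison asked whether GO before H2O2 changed the mRNA level of these genes. IGF2 and IGFBP2 were higher in the treated channel on every array. The remaining 8 genes did not pass the test at any probe, and for 7 of them each probe had ratios of both signs among the 4 arrays. The exception was IGFBP6, which was above 0 on every array with an adjusted p just over 0.05. Values are given as log2 of treated over control, so that a positive value is a higher level with GO and H2O2. Among the 6 probes with an exact symbol, 3 were higher and 0 lower at an adjusted p under 0.05 (limma). Among the 15 other probes, 1 was higher and 0 were lower. Over all 24230 tested probes, 9.49% were higher and 7.59% were lower. All 4 arrays had the same sign at 3 of the 6 probes, at 2 of the 15 and at 10612 of all 24230. At an unadjusted p under 0.05, 3 and 2 probes were higher and 0 were lower in either set. Over all 24230 tested probes, 4659 were higher and 4239 lower at that cutoff. The median log2 ratio was 0.30 over the 6 probes, 0.13 over the 15, and 0.00 over all tested probes. The 4 higher probes measured only IGF2 and IGFBP2, and probes of a gene share their target, so these counts do not stand for independent genes.

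**Figure D1:**
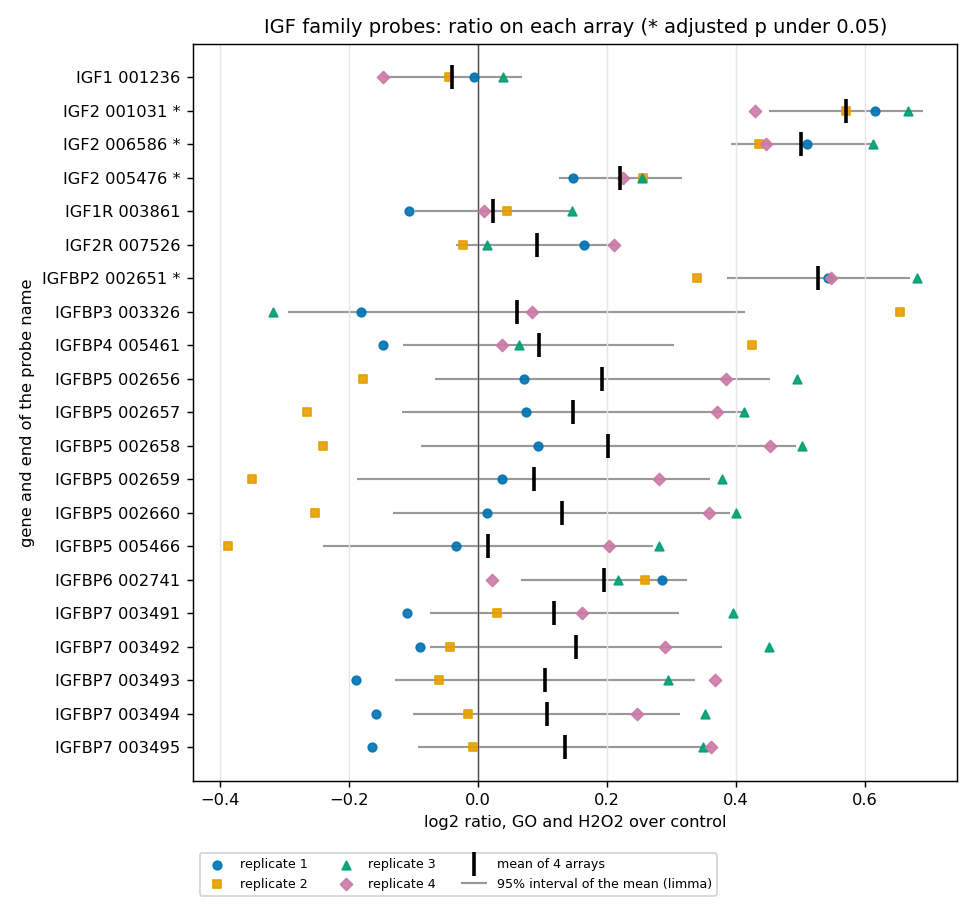
Log2 ratio of GO and H2O2 over control (x axis) for each of the 21 probes of the family (y axis), with 1 symbol per array, a bar at the mean and a line for limma's 95% interval of the mean. The 3 IGF2 probes and the IGFBP2 probe lie to the right of 0 on all 4 arrays and carry an asterisk, whereas the IGFBP3, IGFBP5 and IGFBP7 probes spread over both sides of 0.

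Of the ligands, IGF2 was measured by 2 exactly named probes that lie close together on an unplaced sequence of the EquCab1 build. Their sequences are shown because the ligand result rests on them, and they are written as the array file gives them, with no base marked.
IGF2 A_69_P001031 (chrUn:277275501-277275560, plus strand): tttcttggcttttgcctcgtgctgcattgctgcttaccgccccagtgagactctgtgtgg
IGF2 A_69_P006586 (chrUn:277275581-277275640, plus strand): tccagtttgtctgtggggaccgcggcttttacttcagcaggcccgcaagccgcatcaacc
Each is a 60-base probe, and they start at bases 41 and 121 of the same transcript without overlapping.

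At the first of these probes the normalised intensity in replicates 1 to 4 was 2192, 1988, 2373 and 1895 in the treated channel and 1430, 1338, 1495 and 1407 in the control channel. Every treated value lay above every control value. The log2 ratios were 0.62, 0.57, 0.67 and 0.43, with a mean of 0.57 ± 0.10 (SD, n = 4), which is a 1.49-fold higher level (95% interval of the log2 ratio 0.45 to 0.69, limma adjusted p = 0.00970). This mean was at percentile 99.5 of all tested probes.

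At the second probe the treated intensities were 1553, 1442, 1630 and 1605, and the control intensities were 1090, 1065, 1066 and 1178. The channels again did not overlap, as was the case for 14.2% of all tested probes. Its log2 ratios of 0.51, 0.44, 0.61 and 0.45 gave a mean of 0.50 ± 0.08, or 1.42-fold (limma adjusted p = 0.0105).

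The third IGF2 probe, A_69_P005476 (chrUn:277277448-277277507, plus strand), lies in the 3′ untranslated region by its description. It gave 297, 275, 279 and 289 in the treated channel and 268, 231, 234 and 248 in the control channel. The 2 groups did not overlap here either. The log2 ratios of 0.15, 0.26, 0.26 and 0.23 had a mean of 0.22 ± 0.05 (1.17-fold, limma adjusted p = 0.0222), which was below that of both other IGF2 probes on every array. The offset of 50 added during background correction draws the ratio of a dim probe towards 0, and without it the mean was 0.27. The difference between the IGF2 probes was not tested.

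The IGF2 calls were not kept in every fit with 1 array left out. Leaving out replicate 1, 2, 3 or 4, the limma adjusted p of the first probe was 0.0801, 0.0108, 0.0512 and 0.0525, and that of the second was 0.0801, 0.0104, 0.0479 and 0.0693. The third probe passed only without replicate 2 (0.0386) and was at 0.0820, 0.0687 and 0.0913 without replicates 1, 3 and 4. The mean log2 ratio of the first probe stayed between 0.54 and 0.62 in these 4 fits.

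IGF1, the other ligand and the one best known as a mediator of growth hormone action, was measured by 1 probe, A_69_P001236, whose 60 bases extend over 4567 bases of the minus strand (chr28:26114321-26118887). It was dim. The control channel exceeded the background clearly on 4 arrays and the treated channel on 3. Its intensities were 112, 114, 117 and 107 in the treated channel and 112, 118, 114 and 119 in the control channel, and the 2 groups overlapped. The log2 ratios were −0.01, −0.04, 0.04 and −0.15, with a mean of −0.04 (95% interval −0.15 to 0.07, limma adjusted p = 0.556). With Agilent's processed signals the mean was −0.32 and did not pass either.

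**Figure D2:**
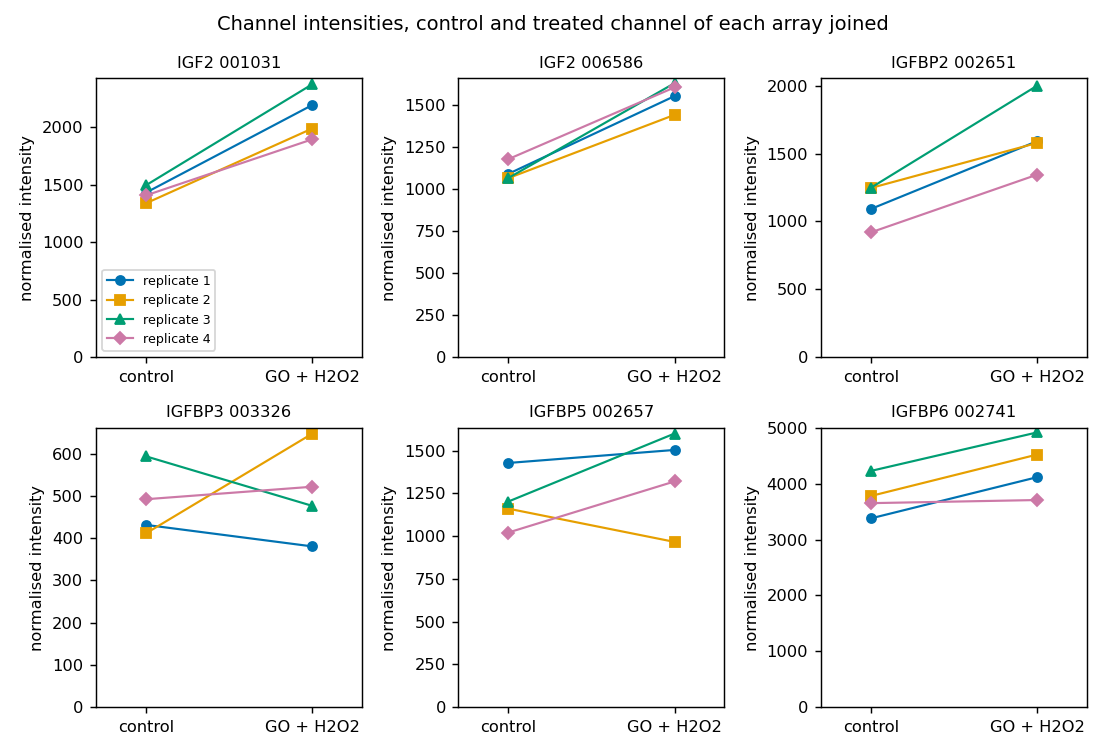
Normalised intensity (y axis, from 0) of the control and the treated channel of each array, joined by a line, for 6 probes of the family. All lines rise for both IGF2 probes, for IGFBP2 and for IGFBP6, while the replicate 2 line rises steeply for IGFBP3 and falls for IGFBP5.

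Neither receptor passed the test. For IGF1R, the signalling receptor (A_69_P003861, chr1:101337333-101337392, minus strand), intensities were 166, 178, 177 and 181 in the treated channel and 178, 172, 160 and 180 in the control channel. These values overlapped, with replicate 1 lower and replicate 3 higher in the treated channel. The mean log2 ratio was 0.02 ± 0.10 (95% interval −0.10 to 0.14, limma adjusted p = 0.767). The paper lists both igf1r and igf2 among genes higher with GO on its microarrays. IGF2 was higher here as well, whereas the probe behind the paper's igf1r result was not identified.

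For IGF2R, which clears IGF2 from the cell surface (A_69_P007526, chr31:8218205-8218264, minus strand), the treated intensities were 154, 153, 138 and 161 and the control intensities 138, 156, 137 and 139. Replicates 1 and 4 were higher in the treated channel (log2 ratios 0.16 and 0.21), and replicates 2 and 3 were near 0 (−0.02 and 0.01). The mean was 0.09 ± 0.11 (95% interval −0.03 to 0.22, limma adjusted p = 0.250). Differences between the ligand and the receptors were tested on the ratios of each array, in a family of 8 differences. The log2 ratio of the first IGF2 probe exceeded that of IGF1R by 0.55, that of IGF2R by 0.48 and that of IGF1 by 0.61, in each case on 4 of 4 arrays. With 4 arrays the exact two-sided sign-flip test cannot go below p = 0.125, which all 3 reached (0.167 after Benjamini-Hochberg adjustment).

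Among the binding proteins, IGFBP2 was the only one that passed the test. IGFBP2 binds both IGFs, with a preference for IGF2, and is found in blood and in fetal tissues. Its only probe spans 2267 bases of the genome (chr6:6601694-6603960, plus strand), so that its ends lie on either side of at least 1 intron. It is shown because the binding protein result rests on it alone.
IGFBP2 A_69_P002651: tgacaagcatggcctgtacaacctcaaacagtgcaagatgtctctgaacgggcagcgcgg

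The treated intensities of IGFBP2 were 1591, 1578, 2000 and 1345, and the control intensities were 1092, 1246, 1248 and 919. All treated values were above all control values, with replicate 4 the lowest in both channels. The log2 ratios of 0.54, 0.34, 0.68 and 0.55 gave a mean of 0.53 ± 0.14, or 1.44-fold (95% interval 0.39 to 0.67, limma adjusted p = 0.0125). Without replicate 1, 2, 3 or 4 the adjusted p was 0.0818, 0.00772, 0.0571 and 0.0751, so that it passed only without replicate 2, and the mean ranged from 0.48 to 0.59. With the channels treated as unpaired samples (no replicate block) it was 0.0560.

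IGFBP6 has a marked preference for IGF2 over IGF1. Its probe lies at chr6:70198242-70198301 on the plus strand and is shown because its call changed with the settings.
IGFBP6 A_69_P002741: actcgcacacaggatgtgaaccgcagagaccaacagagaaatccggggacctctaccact
Intensities were 4122, 4528, 4925 and 3712 in the treated channel and 3382, 3785, 4234 and 3656 in the control channel. Each array had the higher value in the treated channel, but the groups overlapped and replicate 4 differed little. The log2 ratios were 0.29, 0.26, 0.22 and 0.02, with a mean of 0.20 ± 0.12 and a limma adjusted p of 0.0514 (unadjusted 0.0091). It passed with Agilent's processed signals (0.0467), without background correction (0.0474), after subtraction of a running median (0.0453) and with limma's trend and robust estimation (0.0498). In the other 10 of 14 alternatives it did not pass. Among these were no replicate block (limma adjusted p = 0.247) and the methods' t-test (adjusted p = 0.169). The 4 fits with 1 array left out gave limma adjusted p-values of 0.0781 to 0.178.

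IGFBP3, the main IGF carrier of blood, and IGFBP4, which inhibits IGF action until it is cleaved, were similar to each other in that replicate 2 had the highest ratio. For IGFBP3 (A_69_P003326, chr4:16310586-16311740, minus strand), intensities were 381, 648, 477 and 522 in the treated channel and 432, 412, 595 and 493 in the control channel. Replicate 2 was higher in the treated channel, replicates 1 and 3 were lower, and the groups overlapped. The log2 ratios of −0.18, 0.66, −0.32 and 0.08 had a mean of 0.06 and an SD of 0.43, which was at percentile 98.3 of the SDs of all tested probes (limma adjusted p = 0.797). Without replicate 2 the mean was −0.14.

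For IGFBP4 (A_69_P005461, chr11:20885389-20885448, minus strand), the treated intensities were 152, 201, 149 and 172 and the control intensities 168, 150, 143 and 168. The groups overlapped, and replicate 2 alone stood clearly above its control. The log2 ratios were −0.15, 0.42, 0.06 and 0.04, with a mean of 0.09 ± 0.24 (limma adjusted p = 0.468). Without replicate 2 the mean was −0.02, and neither gene passed in any fit with 1 array left out.

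IGFBP5, a binding protein that also attaches to extracellular matrix, had 6 probes. Of these, 5 were shifted by 1 base each over chr6:6614690-6614753 on the minus strand and share 56 bases, so they are not independent measurements. At these 5 probes the log2 ratio ranged from 0.01 to 0.09 in replicate 1, from −0.35 to −0.18 in replicate 2, from 0.38 to 0.50 in replicate 3 and from 0.28 to 0.45 in replicate 4. Replicate 2 was therefore the only array with the lower value in the treated channel. The means of the 5 probes were 0.09 to 0.20, with limma adjusted p-values of 0.241 to 0.614.

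At the brightest IGFBP5 probe, A_69_P002657, intensities were 1505, 966, 1601 and 1321 in the treated channel and 1429, 1161, 1203 and 1021 in the control channel. The lowest value of all 8 was the treated channel of replicate 2. The sixth probe, A_69_P005466, spans 13476 bases (chr6:6617081-6630556) and shares no base with the other 5. Its log2 ratios of −0.03, −0.39, 0.28 and 0.20 had the same order of arrays, with a mean of 0.02 ± 0.30 (limma adjusted p = 0.928). Without replicate 2, 3 of the 5 overlapping probes passed, with means of 0.29 to 0.35 (limma adjusted p = 0.0390, 0.0458 and 0.0465).

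IGFBP2 and IGFBP5 are neighbours, with 0 protein-coding genes between them in the RefSeq annotation of the horse assembly TB-T2T. The log2 ratio of IGFBP2 exceeded that of the brightest IGFBP5 probe on 4 of 4 arrays, by 0.38 ± 0.19 on average (exact two-sided sign-flip test, p = 0.125, the smallest that 4 arrays allow). It also exceeded that of IGFBP6 by 0.33 and that of IGFBP7 by 0.38 on 4 of 4 arrays, with the same p. Against IGFBP3 and IGFBP4 it was higher on 3 of 4 arrays, by 0.47 and 0.43 (exact p = 0.25 for each), and lower in replicate 2.

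IGFBP7, a secreted protein related to the binding proteins that has low affinity for IGFs, had 5 probes on chr3:69283927-69283990 (plus strand). They are shown as an example of such tiling, with the 56 bases that all 5 share in capitals.
A_69_P003491: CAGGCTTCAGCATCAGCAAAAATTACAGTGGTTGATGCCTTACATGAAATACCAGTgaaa
A_69_P003492: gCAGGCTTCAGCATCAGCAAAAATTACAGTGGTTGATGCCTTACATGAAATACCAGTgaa
A_69_P003493: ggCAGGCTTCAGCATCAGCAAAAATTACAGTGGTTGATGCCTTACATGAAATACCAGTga
A_69_P003494: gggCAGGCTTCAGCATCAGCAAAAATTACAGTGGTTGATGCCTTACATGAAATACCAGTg
A_69_P003495: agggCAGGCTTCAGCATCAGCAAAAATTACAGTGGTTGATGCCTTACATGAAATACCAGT

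At the brightest of them, A_69_P003492, the treated intensities were 387, 372, 393 and 352 and the control intensities 412, 384, 288 and 287. The treated channel varied little, while the control channel was high in replicates 1 and 2 and low in replicates 3 and 4. Over the 5 probes the log2 ratio ranged from −0.19 to −0.09 in replicate 1, from −0.06 to 0.03 in replicate 2, from 0.30 to 0.45 in replicate 3 and from 0.16 to 0.37 in replicate 4. The means were 0.10 to 0.15, and limma adjusted p-values were 0.287 to 0.474.

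The arrays varied more at most binding protein probes under other names than at the typical probe. The median SD of the log2 ratio was 0.27 over the 15 probes under other names, 0.10 over the 6 exactly named probes and 0.09 over all tested probes. Replicate 2 was the highest array for IGFBP3 and IGFBP4 and the lowest for IGFBP5. Across all 24230 tested probes, its ratios had a Pearson correlation of 0.174 with those of replicate 3 and 0.236 with those of replicate 4, while it was 0.518 with those of replicate 1. Between the other pairs of arrays it was 0.441 (replicates 1 and 3), 0.491 (1 and 4) and 0.697 (3 and 4). The part of replicate 2 in the results of these binding proteins was not tested beyond the fits without it.

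**Figure D3:**
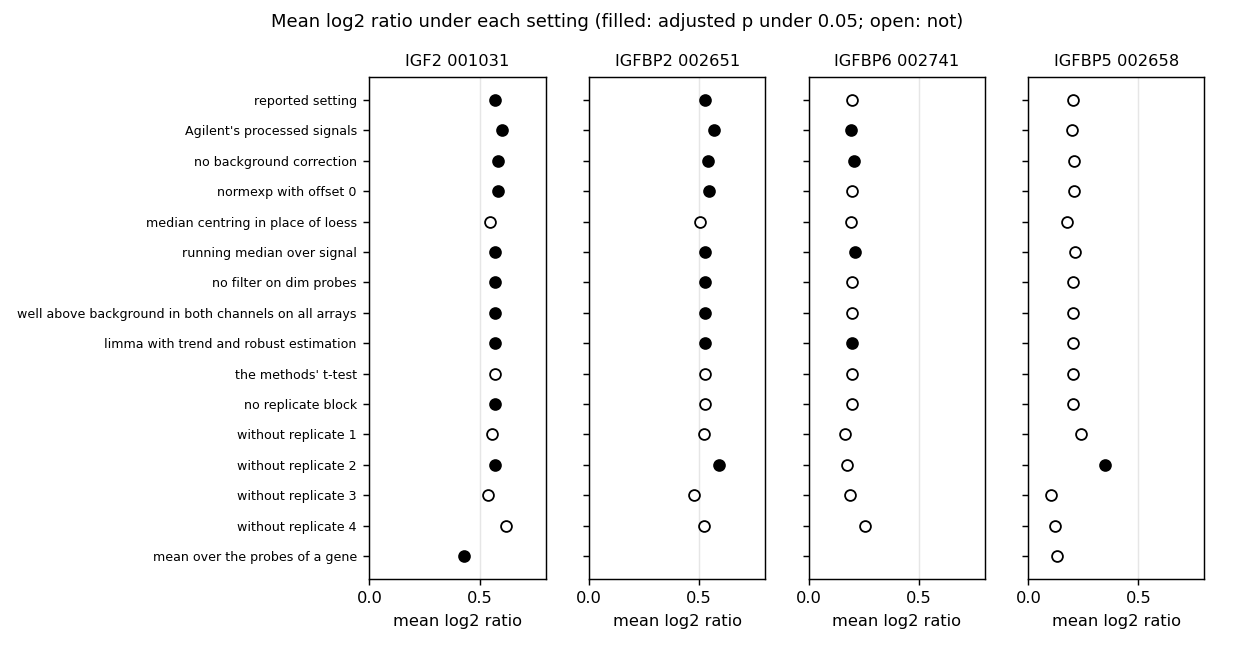
Mean log2 ratio (x axis) of 4 probes under the reported setting and each alternative (y axis), filled where the adjusted p was under 0.05. The means stay at 0.54 to 0.62 for the IGF2 probe and 0.48 to 0.59 for IGFBP2 (the last line averages all probes of a gene, 0.43 for the 3 of IGF2), while the calls are lost in several settings, and the IGFBP5 probe passes only without replicate 2.

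Of 14 markers of differentiating muscle, 11 were found on the array by name and all 11 were tested. Of these, 7 were higher and 0 lower, with a median log2 ratio of 0.23, beside 8.7% higher over the brightest probes of all named genes. MYOD1, MYF5, DES and ACTA1 did not pass, and the first 3 of these had ratios of both signs. The 3 not found by name were PAX7, TNNT1 and MYMK. The higher ones included MYOG, a transcription factor of differentiation (0.33 ± 0.13), the perinatal myosin gene MYH8 (0.75 ± 0.48) and the sarcomeric actin gene ACTC1 (0.44 ± 0.07). For MYH8, replicate 2 was near 0 (0.06). Without replicate 4, 0 of all tested probes were higher and 0 lower, so no marker call, here or below, was kept. Without replicate 1 and with the methods' t-test, 2 of all tested probes were higher in each. The summed intensity of the 11 markers was 337110 to 388819 in the treated channel and 276350 to 309429 in the control channel. The part of the marker difference in the IGF2 and IGFBP2 results was not tested, and in such bulk RNA more cells of a type and more RNA per cell cannot be told apart.

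Among the fibroblast markers, 4 were tested, with LUM (lumican) lower at −0.43 ± 0.10, THY1 higher at 0.28 ± 0.14, and COL3A1 and DCN not passing. Their summed intensity was 174924 to 198202 in the treated channel and 149887 to 180689 in the control channel. COL3A1 was the brightest of the 4 (mean log2 signal 16.9), with DCN next (15.4). PDGFRA was too dim to be tested. None of the adipocyte, endothelial, Schwann cell and liver markers found on the array reached the filter. Of the leukocyte markers CD14 was lower (−0.17 ± 0.06) and CD68 did not pass, and of the smooth muscle markers SMTN did not pass.

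By their ratios on the 4 arrays, the genes closest to the first IGF2 probe were REEP3, which encodes a protein of the endoplasmic reticulum (Euclidean distance 0.170), SGCD, which encodes delta-sarcoglycan of the muscle membrane (0.183), and GTPBP1, which encodes a GTP-binding protein (0.199). The distance is the root of the summed squared differences in log2 ratio over 4 arrays, and 8692 genes were compared at their brightest probe. Those closest to IGFBP2 were the beta-actin gene ACTB (0.160), the calcium pump gene ATP2A1 (0.164) and the slow myosin gene MYH7 (0.164). The ratios of ACTB were 0.46, 0.27, 0.58 and 0.48, with replicate 2 the lowest and replicate 3 the highest, as for IGFBP2. Since ACTB was selected for ratios close to those of IGFBP2, this likeness is not a separate result.

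Outside the family, 60 genes of the IGF pathway were examined at their brightest tested probe, of which 48 were found on the array and 36 could be tested. In all, 8 were higher, 1 was lower and 27 did not pass, and the median log2 ratio was 0.03. Over the brightest probes of all 8693 named genes, 8.7% were higher and 8.63% lower, with a median of −0.01. Without each replicate in turn, 0 to 3 of the 36 genes were higher, with 0 without replicates 1, 3 and 4.

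Of the 20 genes that act on IGFs, binding proteins or receptors, 9 were tested, and 2 were higher. These were ADAM12, a metalloprotease that cleaves binding proteins (0.25 ± 0.13, limma adjusted p = 0.0352), and GRB10, an adaptor that inhibits signalling from the receptor (0.16 ± 0.07, limma adjusted p = 0.0470). Neither passed in any fit that left out an array. IGFBP1, a hepatic binding protein (5 probes), the insulin receptor gene INSR and PAPPA2, a protease of binding proteins, were too dim to be tested.

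Of the 40 genes of signal transduction, 27 were tested, with 6 higher and 1 lower. The lipid phosphatase gene INPPL1, which acts on the product of PI3K, had the highest mean, with log2 ratios of 0.39, 0.25, 0.32 and 0.38 (0.33 ± 0.06, limma adjusted p = 0.0149). All 4 arrays were well above 0. It was followed by PTPN11, the phosphatase SHP2 (0.26 ± 0.14, adjusted p = 0.0332), TSC2, an inhibitor of mTOR complex 1 (0.23 ± 0.05, adjusted p = 0.0215), and the kinase gene AKT1 (0.18 ± 0.08, adjusted p = 0.0410). EIF4EBP1, a translation repressor controlled by mTOR, and FOXO1, a transcription factor controlled by AKT, were higher by 0.16 and 0.14 (limma adjusted p = 0.0409 and 0.0497). FOXO3 counts as not passed by its brightest probe (0.08), although 3 of its 9 tested probes were higher and 0 were lower. PTPN11, AKT1, EIF4EBP1 and FOXO1 did not pass in any fit with 1 array left out (limma adjusted p = 0.0571 to 0.175).

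The only lower gene was PIK3CA, a catalytic subunit of PI3K, with log2 ratios of −0.28, −0.33, −0.15 and −0.31. It was below 0 on all 4 arrays, with a mean of −0.27 ± 0.08 (limma adjusted p = 0.0198). INPPL1, TSC2 and PIK3CA still passed without replicate 2 (limma adjusted p = 0.0138, 0.0261 and 0.0311) but not without replicate 1, 3 or 4 (0.0581 to 0.0956). The genes of another catalytic subunit, PIK3CB (0.03), and of a regulatory subunit, PIK3R1 (0.01), did not pass. Neither did AKT2 (−0.08), TSC1 (−0.06) and MTOR (−0.02).

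**Figure D4:**
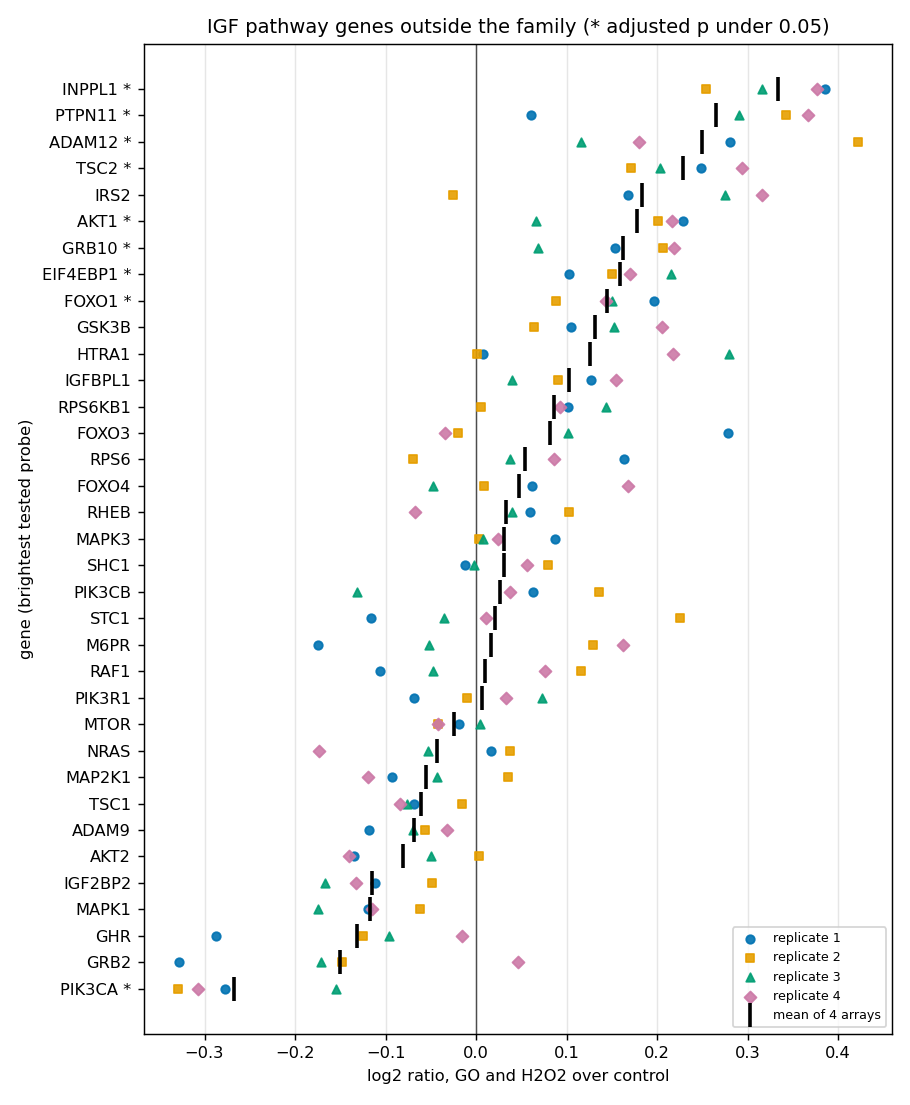
Log2 ratio of GO and H2O2 over control (x axis) on each of the 4 arrays for tested pathway genes outside the family (y axis, sorted by mean, brightest tested probe). INPPL1 is the highest at 0.33 and PIK3CA the lowest at −0.27, and the asterisks mark 8 higher genes and 1 lower gene.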

How the data were processed

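RNA of treated and control cells was compared on 4 two-colour Agilent horse arrays, 1 treated and 1 control channel each, grouped by the labels. The authors extracted spot intensities with Agilent Feature Extraction 10.10.1.1, per the file headers. The mean and background intensity of each channel were used. The deposited log10 ratios of processed red over green, which the series matrix repeats with a largest difference of 0, were used only through the processed intensities in an alternative. Probe coordinates follow EquCab1, and no exon annotation of that build was used here. Names came from the files, and RefSeq accessions gave 10986 probes a symbol.

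Intensities were corrected with normexp (offset 50) and normalised within arrays by loess with limma 3.58.1 in R 4.3.3. Control spots had weight 0 in loess. They and 7 to 16 outlier spots on an array were dropped, and repeated spots were averaged by probe. Saturated gene spots numbered 0. Probes well above background on all 4 arrays in 1 channel were kept (24230), and 54.9% to 61.4% of gene spots were well above background. Ratios were tested against 0 (lmFit, eBayes, two-sided, Benjamini-Hochberg over all kept probes, 0.05). Channel intensities were scaled between arrays (Aquantile), which leaves ratios unchanged. The number of arrays limits the precision. The script was tested on simulated data.

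The array is the pair of a treated and a control channel, and this pair was taken as the replicate block. The labels do not say whether the cultures sharing an array belonged together in another way. Over probes, the deviations of both channels from their group means had a correlation of 0.359, 0.117, 0.354 and 0.582 on replicates 1 to 4. Whether this comes from the cultures or from the shared array was not tested.

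The members, gene lists and markers were chosen with earlier results of these data known, and the probes under other names were added after the files were seen. All probes found for the members are named, and a probe listed under a further name would have been missed. Of the pathway, the 6 highest and lowest genes past the threshold with 1 sign on all arrays are named, as are the 3 genes nearest to each member past it. EIF4EBP1, FOXO1, FOXO3, PIK3CB, PIK3R1, AKT2, TSC1, MTOR and the untested genes are named in addition, after their values were seen, as are the marker genes with values. The values of 1 tested pathway gene are in the counts but not reported here. The alternatives included Agilent's processed signals, uncorrected signals, offset 0, median centring, a running median, other filters, trend and robust estimation, the methods' t-test, means over probes, unpaired channels and leaving out each array.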

Additional observations from a re-analysis of the deposited data

How the results depend on the processing

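No probe of the family past the threshold changed its sign under any alternative. The count of exactly named probes that were higher (3) was 0 with median centring and with the methods' t-test, and 0 to 3 without each replicate in turn (0 without replicates 1 and 4, 1 without replicate 3). In each of these fits all 3 had an unadjusted p under 0.05, and all 3 also met the methods' fold limit before adjustment. No family probe was lower (0) under any alternative, also at an unadjusted p. For probes under other names (1 higher), the count was 2 with Agilent's processed signals, without background correction, with the running median and with trend and robust estimation, and 0 with median centring, the methods' t-test and no replicate block. It was 0 to 4 without each replicate, with 4 without replicate 2. At an unadjusted p under 0.05 it was 0 with median centring, 2 with the t-test, 1 with no replicate block and 2 to 7 without each replicate. These alternatives for the probes under other names were chosen after seeing the data.

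For the pathway (8 higher, 1 lower), 4 were higher with offset 0, 5 with the running median and 0 with median centring, the methods' t-test and no replicate block. The number lower was 2 without background correction and with the running median, and 0 with median centring, the methods' t-test and no replicate block. Leaving out each replicate gave 0 to 3 higher and 0 to 1 lower. At an unadjusted p under 0.05, 2 pathway genes were higher and 1 lower with median centring, and 10 higher and 5 lower with the t-test. Without each replicate or with no block, 8 to 11 were higher and 1 to 3 lower. For these and the family counts above, all 24230 tested probes gave 1122 higher and 449 lower with median centring. They gave 3598 and 3332 with the t-test, and 2965 to 4441 and 2571 to 4197 without each replicate or with no block.

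Treating the channels as unpaired, with no replicate block, left 2 of the 3 exactly named probes, both of IGF2, with IGFBP2 at an adjusted p of 0.0560 and the IGF2 probe of the untranslated region at 0.0826 (limma). The counts over all probes moved in the same settings. They were 2299 higher and 1838 lower, against 12 and 0 with median centring, 2 and 3 with the t-test, 388 and 218 with no replicate block, and 2 and 0, 2079 and 1820, 34 and 4, and 0 and 0 without replicates 1, 2, 3 and 4. The cause of these losses was not tested. The mean log2 ratio of the first IGF2 probe ranged from 0.54 to 0.62 over its own fits, the average of the 3 IGF2 probes was 0.43, and that of IGFBP2 ranged from 0.48 to 0.59. IGF1, IGF1R and IGF2R were dim, so their ratios are drawn towards 0 by the offset.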

Other observations

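The 4 log2 ratios of the 21 family probes and of the 7 named pathway genes were searched for an array far from the others, by the gap to the nearest array over the whole range, and 0 of these 28 sets were past the 95% critical value of Dixon's test.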
